A study of Mus musculus with 4 samples.

Results

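Cells with the transcripts of large serous cavity macrophages were found among mononuclear blood cells of BL/6 and SM/J mice. They were chosen by their own counts. A cell was taken when at least 3 of the 7 genes Prg4, Timd4, Tgfb2, Ltbp1, Garnl3, C1qa and Gata6 were detected, with at least 10 unique molecular identifiers (UMIs, counted RNA molecules) of these genes in all. Cd79a, a B cell gene, had to be below 2 UMIs and Cd3e, a T cell gene, at 0. Of 11721 cells kept, 475 met the rule. They are called cavity-type macrophages here, and their number, and every gene of theirs set against other cells, follow from that choice and are given as descriptions.

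Blood was drawn by heart puncture from BL/6 and SM/J mice aged 12 and 20 months, mononuclear cells were separated on a density medium, and platelets and red cells were depleted. The RNA was read on the 10x 3′ single-cell platform, which counts transcripts from their 3′ end. Both ages of a strain were labelled with tag oligos, pooled and run as 1 10x sample, and the deposited data are 4 count matrices, 1 per strain and age, called libraries below. No treatment, genotype or sex is given in the labels. Each library carried 3 tag oligos, and the cells of 1 tag are called an aliquot. Nothing says that an aliquot was an animal, so no test was made across aliquots, and all intervals below cover counting error only. The strains were in different 10x runs, so effects of strain and of run cannot be told apart. Unless stated otherwise, sets of 4 values follow the order BL/6 at 12 months, BL/6 at 20 months, SM/J at 12 months and SM/J at 20 months.

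Large cavity macrophages live in the fluid of the peritoneal, pleural and pericardial spaces. The transcription factor Gata6, induced by retinoic acid from the surrounding tissue, maintains their identity, and the receptor Tim-4 (Timd4) binds phosphatidylserine on dying cells and marks long-resident cells. They take up dying cells, make coagulation factors and 12/15-lipoxygenase (Alox15) products, and can attach to injured surfaces. Monocytes of the blood fall into classical cells, which carry Ly6c2 and the chemokine receptor Ccr2, and nonclassical cells, which patrol the vessel wall and carry Cx3cr1 and Treml4.

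Of the genes higher at 20 than at 12 months in the SM/J macrophages, the first by ratio were Saa3, which encodes an acute phase serum amyloid A protein, and Socs3, which encodes an inhibitor of cytokine signalling through STAT3. The 250 bases before each start site are printed because C/EBP and STAT factors are known regulators of acute phase genes and of Socs3. The sequences are from RefSeq on GRCm38.p6, 5′ to 3′ on the strand of the gene. The Saa3 window lies at chr7:46715677-46715926 and the Socs3 window at chr11:117969367-117969616, both on the minus strand, upstream of the gene and outside its transcript. Capitals mark a match to a C/EBP-type motif (TTNNGCAA) in Saa3 and to a STAT-type motif (TTCNNNGAA) in Socs3.
Saa3: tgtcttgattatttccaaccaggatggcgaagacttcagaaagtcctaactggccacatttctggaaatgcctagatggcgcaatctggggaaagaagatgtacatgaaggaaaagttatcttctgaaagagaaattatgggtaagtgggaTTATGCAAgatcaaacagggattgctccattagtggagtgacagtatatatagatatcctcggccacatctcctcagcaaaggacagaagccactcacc
Socs3: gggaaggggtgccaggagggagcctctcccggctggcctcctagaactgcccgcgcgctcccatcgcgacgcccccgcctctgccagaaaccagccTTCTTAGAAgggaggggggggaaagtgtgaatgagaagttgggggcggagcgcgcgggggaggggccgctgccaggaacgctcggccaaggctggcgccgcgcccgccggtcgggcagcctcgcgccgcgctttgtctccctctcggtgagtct
The match TTATGCAA starts 99 bases before the Saa3 start and TTCTTAGAA starts 154 bases before the Socs3 start. Searched on both strands over 32851 windows of this length, the C/EBP-type letters stood in 9.56% and the STAT-type letters in 7.02%. A match is a description of the letters, and binding was not measured.

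The share of cavity-type macrophages stood far apart in SM/J at 20 months. They were 29 of 3439 kept cells in BL/6 at 12 months (0.843%), 36 of 3144 in BL/6 at 20 months (1.15%), 33 of 2428 in SM/J at 12 months (1.36%) and 377 of 2710 in SM/J at 20 months (13.9%, exact Clopper-Pearson 95% interval 12.6 to 15.3%). In SM/J the share was 12.55 percentage points higher at 20 than at 12 months (11.19 to 13.96, Newcombe interval). In BL/6 it was 0.302 points higher (-0.182 to 0.807). Both intervals cover the counting of cells in 1 library per age, and cells are not replicates of an age. The aliquots of SM/J at 20 months held 14.99%, 14.58% and 12.28%, and the other 9 aliquots between 0.352% and 1.92%, so the ranges of aliquots did not overlap. A share of cells does not give a number of cells per volume of blood.

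**Figure D1:**
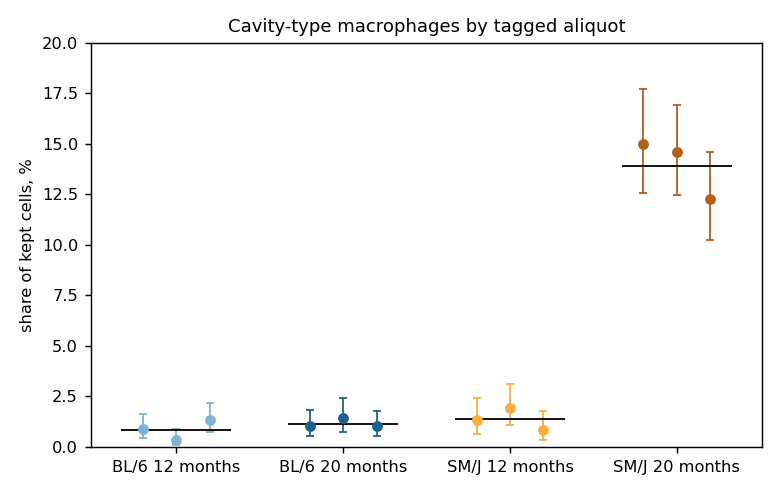
Share of kept cells that were cavity-type macrophages, in percent, in each tagged aliquot (points, with exact 95% intervals) and library (black line). The 3 aliquots of SM/J at 20 months lie between 12.28% and 14.99%, above the other 9.

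Few cells lay near the minimum of the rule. The lowest UMI sum of the 7 genes among the cells chosen was 39, 35, 15 and 13, and their median sum 149, 149.5, 171 and 153. Cells with 3 of the genes but too few UMIs numbered 0, 1, 3 and 1, with a highest sum of 3, 5 and 4 in the 3 libraries that had any. Cells with a sum of 10 or more but fewer than 3 of the genes numbered 2, 5, 0 and 5. The lowest sums among the cells chosen in SM/J at 20 months were 13 and 17, so the space around the minimum was thinly filled and not empty. The Cd79a and Cd3e limits left out 1, 2, 2 and 26 droplets that met the gene part of the rule. Members with 6 or 7 of the genes numbered 23, 27, 29 and 301.

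**Figure D2:**
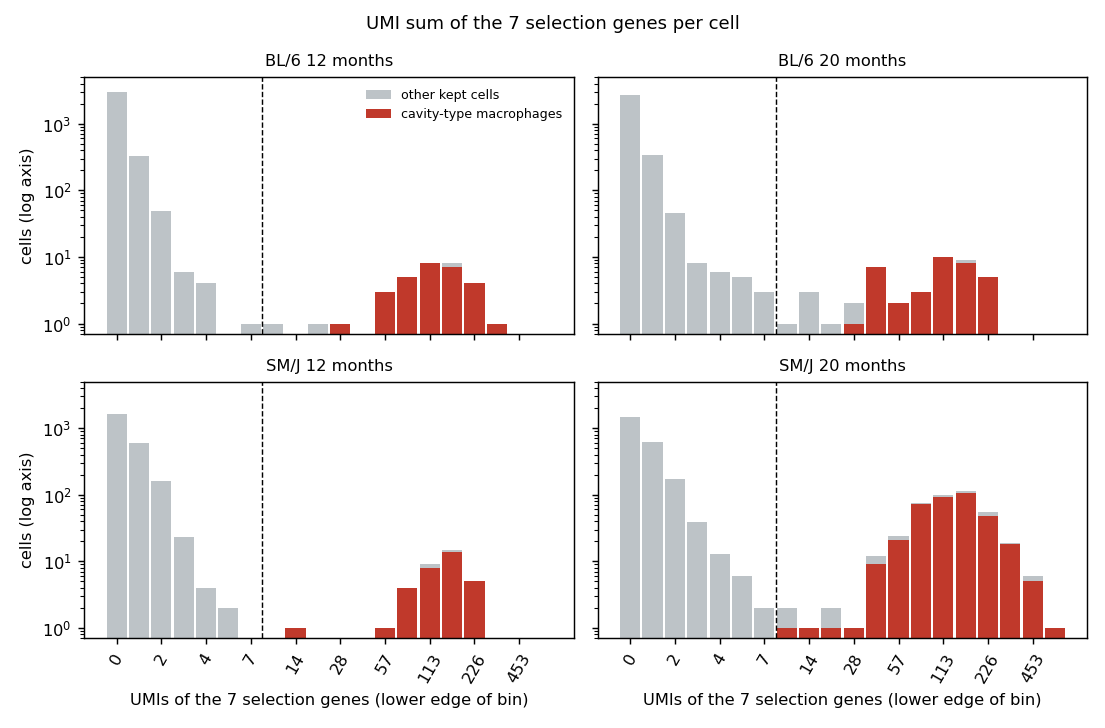
Number of cells (log axis) by the UMI sum of the 7 selection genes, in 1 panel per library, with cavity-type macrophages in red and other kept cells in grey; the dashed line marks the minimum of 10 UMIs. Most macrophages lie well above the line, with medians from 149 to 171 UMIs.

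The macrophages were RNA-rich. Their median UMI count was 16083, 13767, 15198 and 12597, against 4087, 4961, 4767 and 8922 over all kept cells. Libraries held 14250603 to 30627357 UMIs, of which 474688, 546645, 488201 and 5278268 were in the macrophages. Their median mitochondrial share was 4.50 to 4.81%. No macrophage was marked as a doublet by Scrublet, and none shared a barcode with a macrophage of another library. When 2000 UMIs were drawn at random from each cell, macrophages made up 0.831, 1.19, 1.53 and 14.4%.

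Detection of the selection genes followed from the rule and is given as a description. Prg4, which encodes the lubricant proteoglycan 4, had a UMI in all 29, 36 and 33 macrophages of the first 3 libraries and in 376 of 377 in SM/J at 20 months. B cell-like cells, whose median depth was 3699, 3521, 4540 and 9880 UMIs, had a Prg4 UMI in 3.58, 4.52, 13.9 and 18.7%. Gata6 was seen in 72.4, 61.1, 57.6 and 52.0% of macrophages and in 0.155 to 0.854% of B cell-like cells. Timd4 was not seen in 8, 8, 2 and 10 macrophages. The C1q chain gene C1qa was seen in every macrophage and in 2.78 to 20.0% of B cell-like cells.

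Genes outside the rule included many that are known from cavity macrophages. Levels are given as CPM, the UMIs of a gene for each 1000000 UMIs summed over the cells of a library, and 3′ counts of different genes are not compared with each other. Alox15 stood at 1791, 1385, 1952 and 2417 CPM in the macrophages and at no more than 14.71 CPM in classical and 9.82 CPM in nonclassical monocyte-like cells. Ptgis, which encodes prostacyclin synthase, stood at 292.8, 307.3, 399.4 and 369.8 CPM and had 0 UMIs in classical monocyte-like cells of all 4 libraries. The groups did not overlap for either gene. The endothelin receptor gene Ednrb was at 676, 900, 852 and 861 CPM, and the laminin-binding integrin gene Itga6 at 1380, 1059, 729 and 605 CPM. In classical monocyte-like cells they reached at most 5.32 and 27.1 CPM.

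Against 202, 383, 86 and 79 classical monocyte-like cells, 118 of 2047 genes tested were at least 2-fold higher in the macrophages in all 4 libraries (5.76%) and 112 were at least 2-fold lower (5.47%). A gene was tested if it had at least 100 UMIs over both classes of a library and a mean of at least 20 CPM. Tested here means entered into the comparison and called means past 2-fold, with no p-value. Of 30 large cavity macrophage genes, 19 were tested and 18 were higher, with a median log2 ratio of 4.96 beside -0.31 for all genes tested. The smallest log2 ratios of the 4 libraries were 7.16 for Ednrb, 6.96 for the ficolin gene Fcna, 6.69 for the B cell attractant Cxcl13, 6.09 for P-selectin (Selp) and 5.24 for Itga6. Fn1 (fibronectin) was high in both classes. It stood at 5882, 6860, 5531 and 5102 CPM in the macrophages and at 977, 950, 1074 and 1426 CPM in classical monocyte-like cells.

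Several classical monocyte genes were lower in the macrophages. Of the 10 in the list, 8 were tested and 5 were lower, among them Ly6c2, Ccr2, Chil3 and Hp, beside 5.47% of all genes tested, and 7 genes of the list had been used to choose the classical cells. Ccr2 stood at 61.1, 168, 111 and 15.4 CPM in the macrophages and at 1349, 1301, 1008 and 1419 CPM in classical cells. Ly6c2 stood at 23.2, 47.6, 30.7 and 11.2 CPM against 734, 425, 1405 and 570 CPM. The groups did not overlap for either gene, and SM/J at 20 months was lowest in both among the macrophages. In BL/6 all 29 Ccr2 UMIs of the macrophages at 12 months, and 45.7% of those at 20 months, were in 1 cell.

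Against 346, 670, 329 and 149 nonclassical monocyte-like cells, 168 of 4077 genes tested were higher in all 4 libraries (4.12%) and 461 lower (11.3%). Of 19 large cavity macrophage genes tested, 16 were higher, with a median log2 ratio of 6.63 beside -0.44 for all genes. Fn1 was at 25.0, 21.0, 37.9 and 57.1 CPM in nonclassical cells, so it was far lower there than in the macrophages. All 10 nonclassical genes were tested and were lower, and 7 of them had been used to choose those cells. Treml4 stood at 12.6, 22.0, 40.97 and 28.2 CPM in the macrophages and at 419, 355, 592 and 506 CPM in nonclassical cells. Tgfbr1, a TGF-beta receptor, stood at 46.4, 47.6, 75.8 and 50.6 CPM in the macrophages and at 391 to 452 CPM in nonclassical cells. Of 11 genes tested in the TGF-beta pathway list, 6 were lower in the macrophages and 1, Fn1, was higher, beside 11.3% and 4.12% of all genes tested. The TGF-beta ligand gene Tgfb2 and Ltbp1 were not in that list. Both are selection genes and, after that choice, were higher in the macrophages in all 4 libraries.

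**Figure D3:**
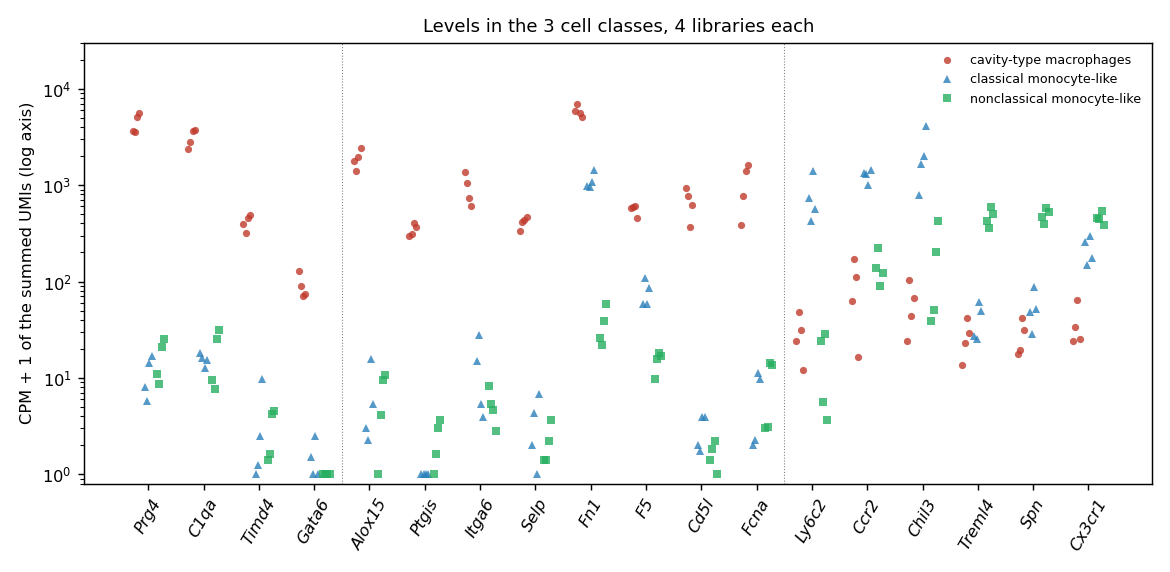
Level of 18 genes (CPM + 1, log axis) in cavity-type macrophages and in classical and nonclassical monocyte-like cells, 1 point per library. The left block holds selection genes, the middle block other cavity macrophage genes and the right block monocyte genes; Alox15 lies between 1385 and 2417 CPM in the macrophages.

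Several complement and clotting genes were higher in the macrophages. Of 22 complement and coagulation genes, 11 were tested against classical cells and 8 were higher (C1qb, C1qc, Vsig4, Cfp, C4b, F5, F10 and Itgam), beside 5.76% of all genes tested. The median log2 ratio was 2.89, beside -0.31 for all genes tested. C1qb, a chain of the first complement component, was at 2172, 2706, 1690 and 2219 CPM. Vsig4, a complement receptor of tissue macrophages, was at 306, 419, 219 and 273 CPM. Coagulation factor V (F5) stood at 575, 587, 610 and 457 CPM against 57.3 to 107 CPM in classical cells. Factor X (F10) stood at 329, 273, 877 and 1091 CPM, higher in both SM/J libraries than in both BL/6 libraries.

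Several enzymes of lipid mediators were higher too. Of 11 genes tested in the lipid list against classical cells, 7 were higher (Alox15, Ptgs1, Ptgis, Tbxas1, Ltc4s, Apoe and Cd36), beside 5.76% of all genes tested. The median log2 ratio was 2.13, beside -0.31 for all genes tested. Ltc4s, which encodes leukotriene C4 synthase, stood at 510, 598, 754 and 745 CPM and at no more than 21.8 CPM in classical cells. Ptgs1 (cyclooxygenase 1) stood at 247, 227, 227 and 266 CPM. Ltc4s was higher in both SM/J libraries than in both BL/6 libraries, while Ptgs1 differed little between libraries. Apoe, the lipid carrier apolipoprotein E, stood at 10997, 10358, 7308 and 11442 CPM.

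Markers of macrophages from other tissues were uneven. The 17 genes of the list summed to 1020, 1015, 539 and 943 CPM, and 11, 9, 9 and 3 of them were at 0. Clec4f (liver Kupffer cells), Spic (splenic red pulp macrophages), Vcam1 and Siglecf (alveolar macrophages) were at 0 in both BL/6 libraries and in SM/J at 12 months, and at no more than 0.947 CPM in SM/J at 20 months. Slc40a1, Car4 and Sall1 had 0 UMIs in all 4 libraries. Cd5l, a scavenger protein gene shared by several resident macrophages, was at 923, 778, 367 and 615 CPM and made up most of the sum. Hmox1, haem oxygenase 1, stood at 42.1, 64.0, 43.0 and 105 CPM, and Folr2, a folate receptor gene of another resident subset, at 8.43, 27.4, 49.2 and 95.1 CPM. Both were highest in SM/J at 20 months. Of the 8 mesothelial cell markers, the summed level was 0, 0, 0 and 0.758 CPM. The 8 fibroblast and cardiac markers summed to 0 to 2.05 CPM, the 8 mast cell markers to 0 to 3.66 CPM and the 5 eosinophil markers to 0 to 8.19 CPM.

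Erythroid and B cell transcripts were present at uneven levels. The 6 erythroid genes summed to 37.9, 31.1, 5809 and 852 CPM. In SM/J at 12 months 1 macrophage held 97.2% of the globin UMIs (2745 of 2824), and in SM/J at 20 months 1 held 52.2%. The 8 B cell markers summed to 40.0, 42.1, 88.1 and 75.8 CPM. The B cell-like cells also differed between the libraries. Zcwpw1, a gene high in a B cell population of SM/J at 20 months, was at 83.9, 22.4, 60.9 and 1207 CPM in B cell-like cells, and between 1192 and 1218 CPM in the 3 aliquots of the last library. The relation of this difference to the share of macrophages was not tested.

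Every macrophage had passed the same minimum on the selection genes, so their levels at the 2 ages are a description. Prg4 stood at 5088 CPM in SM/J at 12 months and 5661 CPM at 20 months, a log2 ratio of 0.15. In BL/6 it stood at 3619 and 3545 CPM (-0.03). Timd4 gave 0.11 in SM/J and -0.34 in BL/6. Tgfb2 gave -0.19 in SM/J and -0.56 in BL/6, where it stood at 980 and 664 CPM. Of the 7 selection genes only Garnl3 in BL/6 passed 2-fold between ages, at 655 CPM and 289 CPM (-1.18).

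In SM/J the 377 macrophages of 20 months were set against the 33 of 12 months. Of 5379 genes tested, 97 were at least 2-fold higher at 20 months (1.80%) and 47 at least 2-fold lower (0.874%). Between libraries a gene was tested only if its level in the macrophages, pooled over both libraries, also reached 0.25 times the pooled level of the highest of the monocyte, B and T cell-like classes, which limits free RNA. With TMM scaling the split was 123 higher and 32 lower (79.35% higher, in place of 67.36%). Leaving out the UMIs of the highest cell of each gene in each library, with the total for CPM unchanged, gave 241 higher and 14 lower. This lowers levels more in 33 cells than in 377, and the median log2 ratio over all genes went from -0.02 to 0.17. Leaving out aliquot 1 or 2 of SM/J at 12 months gave 159 higher each and 71 or 95 lower. These are counts past a fold, with no test, since there was 1 library per age.

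Saa3 led the genes higher at 20 months in SM/J. It stood at 6868 and 1282 CPM in BL/6 at 12 and 20 months, and at 1964 and 22636 CPM in SM/J. The SM/J log2 ratio was 3.53 (conditional binomial 95% interval 3.43 to 3.62), 11.5-fold, and the BL/6 log2 ratio was -2.42 (-2.54 to -2.30). The aliquots of SM/J at 12 months gave 1502, 2658 and 1128 CPM and those at 20 months 20205, 23907 and 23435 CPM. In BL/6 the aliquots gave 6422, 6709 and 7304 CPM at 12 months and 1658, 829 and 1322 CPM at 20 months. Aliquots of the 2 ages did not overlap in either strain, and the direction was opposite.

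Saa3 was spread over the SM/J macrophages of 20 months. Single cells ranged from 1041 to 101044 CPM with a median of 17365 CPM, and every cell had a UMI. At 12 months the median was 1544 CPM. In B cell-like cells Saa3 stood at 19.1, 21.2, 492 and 465 CPM, and 90.45% and 90.3% of them had a UMI in the SM/J libraries against 7.93% and 9.15% in BL/6. The part of free RNA in the SM/J values was not tested.

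Socs3 stood at 110, 69.5, 26.6 and 252 CPM. It was highest in SM/J at 20 months and lowest in SM/J at 12 months, with a log2 ratio of 3.20 (2.47 to 4.16). The aliquots gave 23.6, 22.2 and 43.0 CPM at 12 months and 251, 248 and 259 CPM at 20 months, with no overlap. At 12 months only 10 of 33 macrophages had a Socs3 UMI, so the aliquot values of that age rest on few UMIs. After each cell was thinned to 5000 UMIs it was seen in 15.6% of macrophages at 12 months and 66.8% at 20 months. Without thinning these shares were 30.3 and 85.2%, and those of B cell-like cells 4.93 and 20.4%. In BL/6 it gave -0.65 and was not tested, as its UMIs fell under the minimum.

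Other genes higher at 20 months in SM/J had few UMIs at 12 months, as Socs3 did. Fcgr4, an activating IgG receptor, stood at 17.7 to 53.7 CPM in the aliquots of 12 months and 147 to 166 CPM in those of 20 months (log2 ratio 2.64). Il21r had 3 UMIs at 12 months and 40.2 CPM at 20 months (2.53, 1.14 to 5.00). Fkbp5, a glucocorticoid-induced gene, stood at 18.4 and 90.2 CPM (2.23, 1.35 to 3.43). For the scavenger receptor gene Marco, 55.6% of the 18 UMIs at 12 months were in 1 cell. Its log2 ratio was 2.57, and 3.52 without the highest cell of each library. Cxcl14 had 2 UMIs at 12 months (2.99, 1.39 to 6.32), and Mctp2, Dmpk and Alb gave 2.23, 2.19 and 2.15 with 6, 4 and 6 UMIs there.

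Complement genes C3 and Cfb were both higher in SM/J at 20 months. C3, the central complement component, stood at 75.8 and 217 CPM (1.51, 1.05 to 2.03). Cfb, the factor B of the alternative pathway, stood at 178 and 383 CPM (1.10, 0.79 to 1.43). They were the 2 called of 14 complement and coagulation genes tested, beside 1.80% of all genes tested, and the median log2 ratio of the 14 was 0.33 beside -0.02 for all genes. Of 15 chemokine and cytokine genes tested, 1 was called higher, again beside 1.80%: Il1a, at 28.7 and 75.6 CPM. Il10, an anti-inflammatory cytokine gene, had a UMI in 14.6% of macrophages of SM/J at 20 months and in 18.7% of B cell-like cells there, so it is not read as expression in the macrophages.

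Genes lower at 20 months in SM/J included Rasgrp3, Pla1a, Egr1, Trem2 and Lpl. Egr1, an immediate early transcription factor, stood at 166 and 54.9 CPM (-1.58, -1.95 to -1.22), with aliquots of 182, 151 and 172 CPM against 38.0, 55.4 and 71.2 CPM. Rasgrp3, a Ras exchange factor, stood at 106 and 27.5 CPM (-1.92, -2.42 to -1.47). Trem2, a lipid-sensing receptor, stood at 90.1 and 29.6 CPM (-1.58), and Lpl, lipoprotein lipase, at 131 and 45.5 CPM (-1.51). For Egr1, Rasgrp3, Trem2 and Lpl the aliquots of the 2 ages did not overlap. Of the Lpl UMIs at 12 months 35.9% were in 1 cell, and without the highest cells it gave -0.96. Pla1a and Arhgap6 gave -1.82 and -1.65, with overlapping aliquots for Pla1a.

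The largest ratios towards lower levels in SM/J rested on single cells. Hbb-bt, Hbb-bs and Hba-a1 gave -3.03, -2.79 and -2.61. Without the highest cell of each library they gave 1.73, 1.08 and 1.66, the opposite direction. Retnla, which marks alternatively activated and monocyte-derived macrophages, gave -2.74, and 85.8% of its UMIs at 12 months were in 1 cell; without the highest cells it gave -0.22 and with a mitochondrial limit of 5% 0.19. The globin genes have near-identical copies, so their split between copies is uncertain.

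In BL/6, 36 macrophages of 20 months were set against 29 of 12 months. Of 1525 genes tested, 23 were at least 2-fold higher at 20 months (1.51%) and 40 at least 2-fold lower (2.62%). Without aliquot 3 of BL/6 at 12 months the counts were 40 and 21. Interferon-inducible genes led the lower ones. Iigp1, an immunity-related GTPase, stood at 453 CPM at 12 months and had 1 UMI at 20 months (-7.33, -13.26 to -5.46). In SM/J it stood at 10.2 and 21.2 CPM, so BL/6 at 12 months was alone in its high level. The guanylate-binding protein gene Gbp2b stood at 545 to 594 CPM in the BL/6 aliquots of 12 months and 55.6 to 112 CPM in those of 20 months (-2.86).

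The type I interferon list had 3 of 18 genes tested in BL/6, and 2 of them were lower, beside 2.62% of all genes tested. Among these, Ifi204, a DNA-sensing HIN-200 family gene, stood at 162 CPM at 12 months and 73.2 CPM at 20 months (-1.14, -1.74 to -0.58). Isg15, the ubiquitin-like product typical of a type I response, was at 12.6, 5.49, 24.6 and 12.3 CPM, low in all libraries.

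Cd74 and H2-Aa, 2 genes of MHC class II presentation, were highest in the same BL/6 library. Of the 10 genes in the MHC class II list, 1 was tested between the BL/6 ages (H2-DMa, -0.64) and none was called. Cd74, the invariant chain, stood at 2149, 527, 367 and 866 CPM and H2-Aa at 805, 188, 158 and 338 CPM. B cell-like cells carried 8168, 6964, 5670 and 5932 CPM of Cd74 and 2800, 2177, 1647 and 1550 CPM of H2-Aa. Neither gene was tested in BL/6, because the macrophages of both ages pooled held 1281 CPM of Cd74 and 475 CPM of H2-Aa, under the minimum of 1939 and 647 CPM. After thinning, H2-Aa was seen in 92.9, 13.9, 18.8 and 62.0% of macrophages, and without thinning in 94.2 to 99.3% of B cell-like cells. In BL/6 at 20 months 71.8% of its UMIs, and in SM/J at 12 months 77.9%, were in 1 cell. The part of free RNA and of mixed droplets in the values of these 2 genes was not tested.

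F13a1 was higher at 20 months in BL/6. F13a1, the clotting factor XIII A subunit, stood at 84.3, 587, 125 and 68.0 CPM (BL/6 log2 ratio 2.79, 2.32 to 3.31). It was seen in 17.2, 86.1, 24.2 and 11.4% of macrophages, and after thinning in 10.7, 77.8, 18.8 and 7.98%. B cell-like cells had an F13a1 UMI in 1.35, 2.47, 0.548 and 1.16%. Classical monocyte-like cells, which carried 897, 1014, 859 and 1997 CPM of F13a1, made up 5.87, 12.2, 3.54 and 2.92% of kept cells, with the highest share in the same library, and their part in this value was not tested.

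Retnla followed F13a1 in the share of cells that carried it. It was seen in 14.3, 52.8, 15.6 and 9.84% of thinned macrophages, and without thinning in 1.41 to 2.88% of B cell-like cells. Its BL/6 log2 ratio was 1.80, with 93.7% of the UMIs at 12 months in 1 cell. The BL/6 aliquots overlapped, at 5.48, 2542 and 37.3 CPM at 12 months and 1794, 437 and 2327 CPM at 20 months. The ratio was 5.40 without the highest cells and -0.20 with a mitochondrial limit of 5%, so its direction turned under the second setting.

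Some chemokine genes were higher at 20 months in BL/6. Of 9 genes tested in the chemokine and cytokine list, 5 were called higher (Cxcl13, Ccl9, Cxcl1, Cxcl2 and Pf4), beside 1.51% of all genes tested, and none was called lower. The median log2 ratio was 1.01 beside 0.04 for all genes. Ccl2, Ccl24 and Ccl6 did not pass 2-fold, at -0.36, -0.16 and 0.04. Among the 5 called, Ccl9 (1.01) and Cxcl13 (1.07) were close to 2-fold. Aliquots of the 2 ages overlapped for Ccl9 and Cxcl1 and did not for Cxcl13, Cxcl2 and Pf4. Cxcl2, a neutrophil attractant, stood at 603, 1507, 3589 and 4725 CPM, lowest in BL/6 at 12 months and highest in SM/J at 20 months. Pf4 (platelet factor 4) stood at 931, 2550, 2749 and 1918 CPM, while the 8 platelet markers summed to 40.0 CPM or less. Cxcl13 stood at 773, 1624, 1448 and 1455 CPM, and after thinning was seen in 42.9, 83.3, 81.3 and 67.8% of macrophages, and without thinning in 1.54 to 9.39% of B cell-like cells. For Cxcl1 84.2% of the 19 UMIs of BL/6 at 12 months were in 1 cell. Ppfibp1, a cell adhesion scaffold gene, stood at 19.0 and 320 CPM (4.01, 3.12 to 5.23), above all others called higher.

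**Figure D4:**
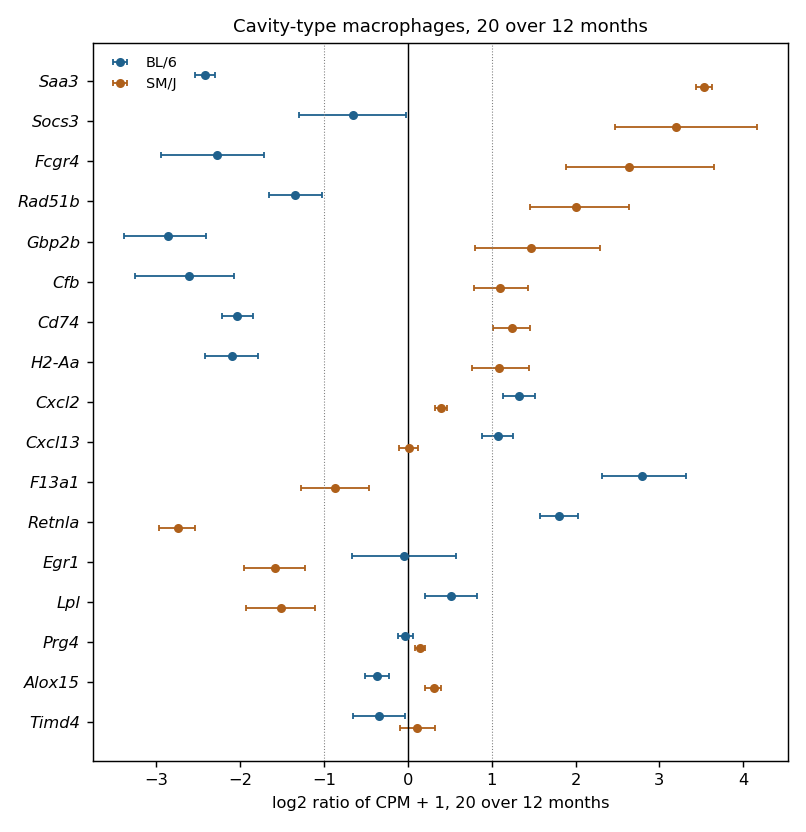
Log2 ratio of CPM + 1 in cavity-type macrophages, 20 over 12 months, for 17 genes in BL/6 (blue) and SM/J (brown), with conditional binomial 95% intervals; dotted lines mark 2-fold. Saa3, Fcgr4, Rad51b, Gbp2b and Cfb lie on opposite sides in the strains.

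Between strains at 12 months, 72 of 1428 genes tested were at least 2-fold higher in SM/J (5.04%) and 70 at least 2-fold lower (4.90%). With TMM scaling the split was 53 and 91 (36.81% higher, in place of 50.7%). With a mitochondrial limit of 5% the counts were 40 and 44 of 812 genes tested, of which 21 and 27 were also called above. Reads were mapped to mm10, a genome of the BL/6 type, and SM/J alleles that differ from it can lose or move reads. Chil1, a chitinase-like protein gene, stood at 0, 22.0, 340 and 985 CPM. With 3 UMIs in the library taken as the floor for BL/6 at 12 months, where it had 0, SM/J stood at 53.8-fold that floor. The conditional binomial 95% interval of its log2 ratio began at 5.44. It was called at 20 months too (log2 ratio 5.42, 4.68 to 6.44). Nrg1, the growth factor neuregulin 1, had 1 UMI in BL/6 at 12 months and 14.6 CPM at 20 months, and stood at 924 and 653 CPM in SM/J.

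Lower in SM/J at 12 months were Thbs1, Marco, Iigp1, Gbp2b and Hdac9 among others. Thbs1, which encodes the matrix protein thrombospondin 1, stood at 1098, 582, 28.7 and 116 CPM (log2 ratio -5.21 at 12 months, -6.14 to -4.50). It was high in both BL/6 libraries and low in both SM/J libraries. Slpi, a protease inhibitor gene, stood at 7097, 13685, 1829 and 2963 CPM, again with no overlap between strains. Lyz1 gave 4.52, but its sequence is close to that of Lyz2, so reads can be split between them. The chemokine list had 4 of 9 genes tested higher in SM/J (Ccl2, Cxcl1, Cxcl2 and Pf4), beside 5.04% of all genes tested.

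At 20 months, 292 of 5383 genes tested were higher in SM/J (5.42%) and 119 lower (2.21%). Without the UMIs of the highest cell of each gene they were 551 and 58. The median log2 ratio over all genes then went from 0.03 to 0.23, as the total for CPM was unchanged and BL/6 had fewer cells. Ifi202b, Stab2 and Adgrg7 had 0 UMIs in BL/6 and stood at 143, 104 and 101 CPM in SM/J. Set against the same floor of 3 UMIs, that was 26.0-, 19.0- and 18.5-fold. The lowest start of their log2 intervals was 3.90, for Adgrg7, so the fold over the floor is not a lower limit there. Lpl and the fatty acid binding protein genes Fabp4 and Fabp5 were lower in SM/J, at -3.23, -1.39 and -2.96. Retnla gave -3.99, Igf1 -3.23 and Trem2 -1.86. Of 15 chemokine and cytokine genes tested, 6 were higher in SM/J (Ccl6, Ccl2, Ccl7, Cxcl1, Cxcl2 and Il1a), beside 5.42% of all genes tested, and Igf1 was lower.

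**Figure D5:**
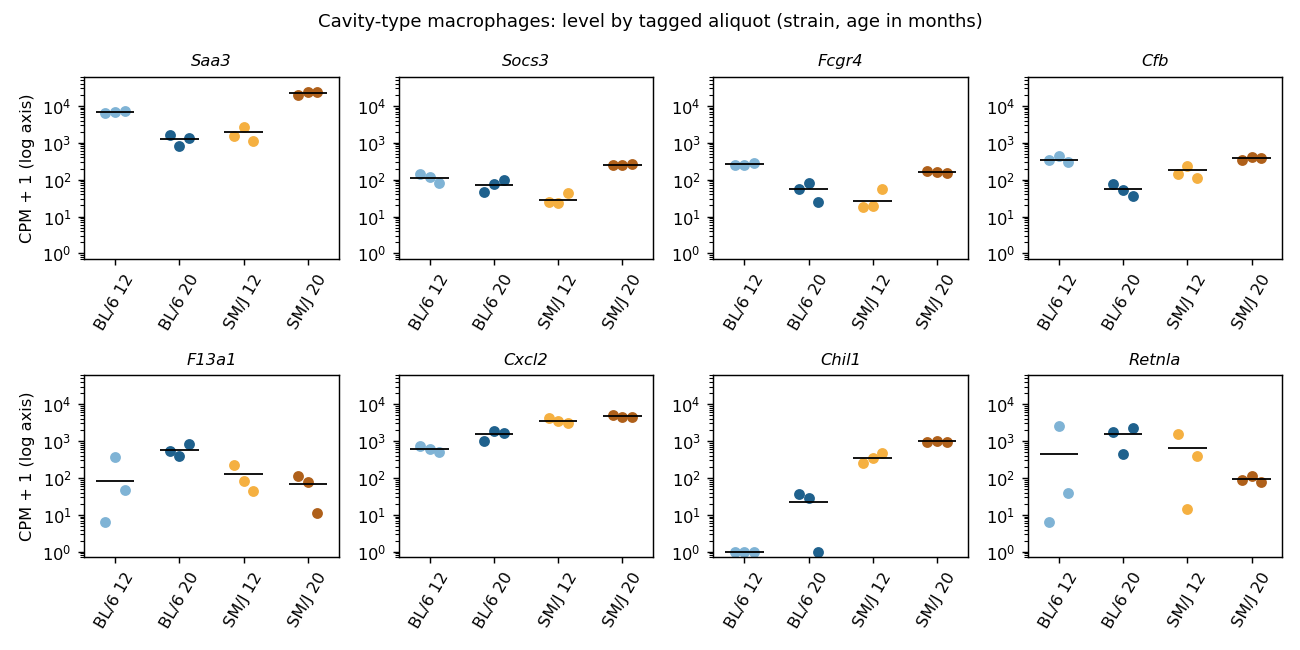
Level of 8 genes in cavity-type macrophages (CPM + 1, log axis), 1 point per tagged aliquot and a black line for the library. Saa3, Fcgr4 and Cfb differ between ages in opposite directions in the strains; Retnla aliquots overlap between ages.

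Cell cycle genes were rare in the macrophages. Mki67 stood at 8.43, 0, 10.2 and 26.1 CPM and was not tested between ages. Top2a stood at 8.43, 1.83, 18.4 and 38.5 CPM and was the only 1 of 4 proliferation genes tested in SM/J that passed 2-fold (log2 ratio 1.02, 0.11 to 2.21), beside 1.80% of all genes tested. The median of those 4 genes was -0.05, beside -0.02 for all genes tested.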

How the data were processed

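The submitters deposited UMI counts per gene and cell as 4 filtered matrices (32285 genes), made with Cell Ranger 7.0.1 per the file headers; mm10 and Seurat 4.3.0 stand in the submitters' processing notes. Other settings of the authors were not given in the sources used here. From these deposited counts, cells with at least 500 UMIs, 200 genes and at most 10% mitochondrial UMIs were kept (11721 of 12299). Tag oligos (12) were read from the same matrices and put cells into aliquots. In the 12-month libraries 17 (BL/6) and 24 (SM/J) kept cells fell into no aliquot, none of them macrophages.

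The macrophages, the comparator classes and the gene lists (30) were chosen with earlier results of these data known. Classical and nonclassical monocyte-like cells had Csf1r, at least 3 of 7 genes of their own list with a sum of at least 5 UMIs, and a larger sum than over the other list. Within a library, the UMIs of each class were added up per gene and scaled to CPM, and ratios are log2 of CPM + 1. A gene was called at 2-fold. Named genes were the list members, the 15 highest and 10 lowest against each monocyte class and the 10 highest and lowest in each contrast between libraries. Doublets were called with Scrublet in scanpy 1.11.5 (expected rate 0.06); it marked 84 BL/6 cells (1.28%) and 43 SM/J cells (0.837%), none of them macrophages, and no cell was removed. Libraries shared 8 barcodes, all between the separate 10x samples of the strains. Shares of thinned cells leave out 1, 0, 1 and 1 macrophages under 5000 UMIs. The design gave each result no test, and the alternatives varied the gates, the count minimum, the pseudocount, the scaling (TMM, edgeR 4.0.16), doublets and single aliquots. Another 2 were added after seeing the data: leaving out the cell with most UMIs of each gene, and no limit against the other classes. In the first, only that cell's UMIs of the gene were taken away, and the total for CPM was unchanged. Some genes of the lists and of the named genes are not reported here. Python 3.11.15, numpy 2.4.6, scipy 1.17.1, pandas 2.3.3 and R 4.3.3 were used.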

Additional observations from a re-analysis of the deposited data

Results flagged for a closer look

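In cavity-type macrophages 1458 genes were tested between ages in both strains. Of these, 10 were at least 2-fold apart in opposite directions in the strains (0.686%), and 0 were at least 2-fold apart in the same direction. For 8 of the 10 the aliquots of the 2 ages did not overlap in either strain. Aliquots were compared only for genes already past 2-fold in the same sums, so the 8 are a description. The share of all 1458 genes with aliquots apart was not computed. The values of 5 of them, those covered by the rule for named genes, follow; the other 3 were Cd38, Rsrp1 and Stxbp3. Log2 ratios are 20 over 12 months. The difference between the strains was not tested. Saa3 gave 3.53 in SM/J and -2.42 in BL/6. Fcgr4 gave 2.64 and -2.28, with BL/6 aliquots of 245 to 275 CPM at 12 months and 23.5 to 78.4 CPM at 20 months. Gbp2b gave 1.47 and -2.86. In SM/J its aliquots ran from 10.8 to 44.4 CPM at 12 months and from 84.8 to 107 CPM at 20 months. Rad51b, a gene of homologous recombination, gave 2.00 and -1.34, with 41.2 to 64.5 CPM in the SM/J aliquots of 12 months and 197 to 230 CPM in those of 20 months. Cfb gave 1.10 and -2.61. For Saa3, Fcgr4 and Cfb the 2 high libraries were BL/6 at 12 months and SM/J at 20 months. For Rad51b, BL/6 at 20 months (223 CPM) was about level with SM/J at 20 months (216 CPM). Retnla also went in opposite directions (-2.74 and 1.80), but its aliquots overlapped.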

How the results depend on the processing

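The share in SM/J at 20 months was 12.29% with Cd79a at 0 and 17.05% with a mitochondrial limit of 5%; under every other setting run it stayed within its counting interval. With a minimum of 10 UMIs the higher and lower counts were 260 and 207 against classical cells, 240 and 214 for BL/6 ages and 445 and 330 for strains at 12 months, and 330 higher against nonclassical cells. With at least 300 UMIs they were 46 and 46 against classical cells, 66 and 298 against nonclassical cells, 47 and 18 for SM/J ages, 6 and 7 for BL/6 ages, 22 and 14 for strains at 12 months and 181 and 44 at 20 months. These settings test more or fewer genes by construction. With the minimum of 10 UMIs the counts for SM/J ages were 97 and 67, and those for strains at 20 months 292 and 152. With a mitochondrial limit of 5%, which leaves fewer cells, 78 genes were higher against classical cells, and the counts were 225 and 94 for SM/J ages and 40 and 44 for strains at 12 months. Without the highest cell of each gene they were 241 and 14 for SM/J ages and 551 and 58 for strains at 20 months. Medians over all genes were 0.17 and 0.23, in place of -0.02 and 0.03. Removing 1 cell of 33 or 36 takes more than removing 1 of 377, and totals for CPM were unchanged. These counts carry that shift. With a pseudocount of 5 CPM 29 genes were lower in SM/J at 20 months. Without the limit against other classes 81 were lower for SM/J ages and 198 for strains at 20 months, and 36 higher for BL/6 ages. Leaving out 1 aliquot gave 94 to 159 higher and 33 to 95 lower for SM/J ages, and 17 to 40 and 21 to 45 for BL/6 ages. Of 1670 alternative values of named genes, 1529 stayed within their interval, 130 moved and 11 reversed. The reversals were Hbb-bt, Hbb-bs, Hba-a1 and Retnla for SM/J ages with the 5% limit (2.83, 1.20, 2.70 and 0.19) and Retnla for BL/6 ages (-0.20). The globins also reversed without the highest cell (1.73, 1.08 and 1.66) and without aliquot 2 of SM/J at 12 months (2.38, 1.54 and 2.88), and gave -3.64, -3.37 and -3.22 without aliquot 1. The cause was not tested. No paired analysis was possible because there was 1 library per strain and age. With 29 to 36 macrophages in 3 of the 4 libraries, genes of few UMIs rest on single cells there.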

Other observations

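Genes of uptake of dying cells were unevenly placed in the cavity-type macrophages. Of 21 genes in the list, 6 were tested against classical monocyte-like cells and 3 were higher (Pros1, Cd36 and Msr1), beside 5.76% of all genes tested. Pros1, which encodes protein S, an anticoagulant that also bridges dying cells to TAM receptors, gave log2 ratios of 1.63 to 2.40. Cd36, a scavenger receptor for oxidised lipids, gave 3.06 to 5.51 against classical cells but -1.74 to -0.65 against nonclassical cells. Against nonclassical cells 9 were tested, with 2 higher and 4 lower (Scarb1, Itgb5, Itgav and Elmo1), beside 4.12% and 11.3% of all genes tested. Mertk, the TAM receptor typical of resident macrophages, stood at 219, 146, 117 and 164 CPM in BL/6 at 12 and 20 months and SM/J at 12 and 20 months.

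Of 3 genes tested in the retinoid and fatty acid receptor list against nonclassical cells, 2 were lower in the macrophages, Rara and Pparg, beside 11.3% of all genes tested. Pparg stood at 44.2, 27.4, 92.2 and 36.9 CPM in the macrophages and at 698, 476, 720 and 810 CPM in nonclassical cells. Rarb, a retinoic acid receptor gene listed among large cavity macrophage genes, stood at 114, 49.4, 92.2 and 83.6 CPM. The plasminogen activator inhibitor gene Serpinb2 was at 695, 494, 1079 and 1212 CPM and at no more than 92.7 CPM in classical cells.

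After thinning, Folr2 was seen in 3.57, 8.33, 15.6 and 27.9% of macrophages, and without thinning in 0.311 to 3.96% of B cell-like cells. Lyve1, often seen with it, was at 0, 11.0, 16.4 and 8.72 CPM. Hmox1 gave a log2 ratio of 1.27 between ages in SM/J (0.66 to 1.99).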
